A study of Mus musculus with 4 samples.

Results

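Serum response factor (SRF) and a group of genes for actin and contractile proteins were examined in the open chromatin of 3T3-L1 cells, a mouse line of embryonic fibroblasts that can become adipocytes. The 10 genes were taken by symbol from the GENCODE annotation, release M21, on the mouse assembly mm10, and were all found among 21829 protein-coding genes: Srf, Acta2, Actg2, Tagln, Cnn1, Myl9, Tpm1, Tpm2, Vcl and Flna. Every DNase site that overlapped a gene body or the 50 kb on either side of it was assigned to that gene. Sites within 1000 bp of a start site of the gene were called promoter sites, those within 1000 bp of another protein-coding gene's start were set apart, and the remainder were called distal.

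SRF is a transcription factor that binds the CArG box, a short element with C and G pairs at its ends and a run of A and T between them. It acts with partners of different families, the myocardin-related factors, which actin monomers hold in the cytoplasm until filaments form, and the ETS factors of the ternary complex group. Its targets include its own gene, smooth muscle genes for actin, calponin, transgelin and myosin light chain, and genes for proteins that fibroblasts use in stress fibres and focal adhesions. The 10 genes are textbook targets of this kind, so CArG boxes near their start sites are no independent finding.

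DNase-seq cuts accessible DNA with DNase I and sequences the cut ends. The 4 libraries came from 2 biosamples of the cell line, labelled as strain C57BL/6J, with no treatment, genetic change or stage of differentiation named and no age or sex given. Biosample 1 was sequenced as technical replicates 1 and 3, and biosample 2 as technical replicates 2 and 1. Both libraries of a biosample were joined into 1 alignment before sites were called, so each biosample has 1 list of peaks and 1 of hotspots, with no spread between libraries. The lists are therefore compared as descriptions, without tests.

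The peak lists held 298212 peaks in biosample 1 and 97260 in biosample 2, each 150 bp wide, and the hotspot lists held 246557 and 88478 wider regions. The lists carry no read counts, so depth was unknown, and a site missing from the shorter list cannot be told apart from one below its depth. Each peak has the authors' own score, a whole number up to 150, which was used only as a percentile within its list, where 100 is the highest-scoring end. Cell type markers were chosen with earlier results of these data known, so their counts are no independent check on the cell type. All 8 fibroblast markers had a promoter peak in both lists. So did 0 of 6 striated muscle markers, 1 of 6 smooth muscle markers (Smtn) and 1 of 6 mature adipocyte markers (Plin1). A further 3 of the smooth muscle and 3 of the adipocyte markers had one in biosample 1 alone. Over all 21829 genes, 51.8% had such a peak in both lists and 62.6% in biosample 1. All 8 fibroblast markers and all 6 adipocyte markers had a ratio of observed to expected CpG below 0.6 around the most upstream start site, a class in which 27.1% of all genes had one in both.

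A choice of 9 sequences is shown first, to compare CArG boxes inside DNase sites of both lists with boxes in 1 list or in none. They were read from the reference genome GRCm38.p6, which has the mm10 chromosomes. Each is written 5′ to 3′ on the strand of the gene. Capitals mark CArG boxes (CC, then 6 bases that are A or T, then GG) and, in the upstream Acta2 peak, also 1 AP-1 match, TGACTCA. The first 6 stretches lie at start sites and the last 3 are distal peaks present in both lists.
Srf, from the start site outwards to the far end of its promoter peak, chr17:46556176-46556405, minus strand: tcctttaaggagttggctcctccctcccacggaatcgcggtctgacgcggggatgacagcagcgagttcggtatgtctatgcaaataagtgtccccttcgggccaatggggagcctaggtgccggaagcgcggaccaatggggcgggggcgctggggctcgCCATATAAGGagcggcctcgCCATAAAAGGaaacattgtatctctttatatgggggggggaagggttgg
Vcl, promoter peak, chr14:20929136-20929285, plus strand: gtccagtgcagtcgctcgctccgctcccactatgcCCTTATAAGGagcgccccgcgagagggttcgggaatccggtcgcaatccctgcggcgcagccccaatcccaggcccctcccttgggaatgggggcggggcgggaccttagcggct
Acta2, peak at the downstream start site, chr19:34254256-34254405, minus strand: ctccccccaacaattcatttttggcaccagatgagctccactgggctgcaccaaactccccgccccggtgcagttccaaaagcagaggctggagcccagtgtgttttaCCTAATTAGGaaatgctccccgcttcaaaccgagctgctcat
Myl9, before the start site, chr2:156775270-156775419, plus strand: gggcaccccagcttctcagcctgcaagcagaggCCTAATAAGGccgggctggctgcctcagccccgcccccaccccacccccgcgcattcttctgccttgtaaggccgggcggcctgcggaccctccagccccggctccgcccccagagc
Tagln, before the start site, chr9:45936059-45936208, minus strand: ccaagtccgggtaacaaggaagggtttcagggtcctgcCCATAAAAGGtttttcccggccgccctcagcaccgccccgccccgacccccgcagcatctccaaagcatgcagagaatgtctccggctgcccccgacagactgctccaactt
Actg2, before the first start sites, chr6:83536266-83536415, minus strand: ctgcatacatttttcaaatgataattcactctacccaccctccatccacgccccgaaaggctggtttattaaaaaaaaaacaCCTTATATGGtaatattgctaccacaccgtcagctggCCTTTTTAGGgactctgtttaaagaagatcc
Flna, intron peak, chrX:74244796-74244945, minus strand: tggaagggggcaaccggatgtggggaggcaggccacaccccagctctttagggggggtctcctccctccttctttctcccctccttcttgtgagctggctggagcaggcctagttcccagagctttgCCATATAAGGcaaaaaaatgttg
Vcl, upstream peak, chr14:20892016-20892165, plus strand: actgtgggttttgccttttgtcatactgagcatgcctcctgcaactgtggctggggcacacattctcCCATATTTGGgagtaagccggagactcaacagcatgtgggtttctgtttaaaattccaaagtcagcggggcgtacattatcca
Acta2, upstream peak, chr19:34265776-34265925, minus strand: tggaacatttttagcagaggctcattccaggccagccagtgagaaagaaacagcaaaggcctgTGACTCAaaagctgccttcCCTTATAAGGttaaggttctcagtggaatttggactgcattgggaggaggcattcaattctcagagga

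A promoter peak in both lists was found for 7 of the 10 genes: Srf, Acta2, Tagln, Tpm1, Tpm2, Vcl and Flna. Cnn1 and Myl9 had one in biosample 1 alone, and Actg2 had none in either list. Over all protein-coding genes, such a pair of peaks was present for 51.8%, and 62.6% had one in biosample 1 and 51.9% in biosample 2. For 10 chosen genes, 7 is close to that background and is given as a count. When the window was cut to 500 bp, Tagln and Tpm2 dropped out and 5 genes remained, against 49.5% of all genes. The Tagln peak lay 978 bp from the nearest start site and the shared Tpm2 peak 863 bp from it.

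**Figure D1:**
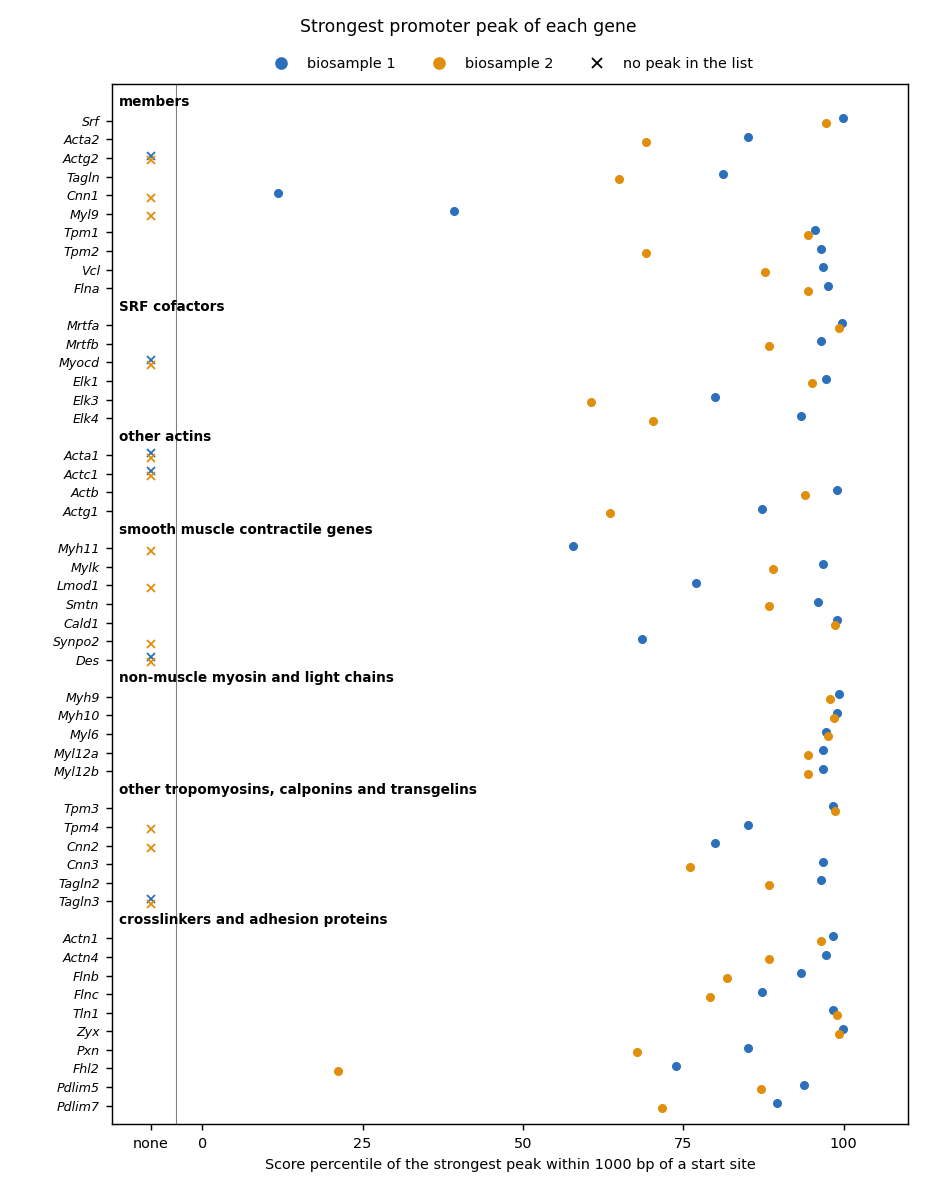
Score percentile of the highest-scoring promoter peak of each gene (x axis, within its own list) for the 10 genes (top) and for 38 other genes of actin, SRF and contraction. Blue circles are biosample 1, orange circles biosample 2, and crosses mark genes with no promoter peak in that list. Srf sits at 99.9 and 97.2, whereas Actg2 has no promoter peak in either list.

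CpG content differs among these promoters. The ratio of observed to expected CpG in the 1000 bp around the most upstream start site was at least 0.6 for 3 of the genes, Srf (0.82), Vcl (0.90) and Tpm1 (0.61), and all 3 had a promoter peak in both lists. Of all genes in that class, 80.2% did. Below 0.6 lay the other 7 genes, of which 4 had a promoter peak in both lists, against 27.1% of all such genes. The class was taken at the most upstream start site, whereas a peak at any start site counted. The highest Flna peak lay at a later group of start sites, where the ratio was 0.75. Tagln and Tpm2 had no promoter peak in both lists when the window was 500 bp. The lowest ratios were those of Actg2 (0.19) and Cnn1 (0.21).

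Srf (chr17:46548329-46556175, minus strand) encodes the factor itself. Its promoter peak, chr17:46556256-46556405, had the same bounds in both lists. It scored 149 in biosample 1, at percentile 99.9, and 87 in biosample 2, at percentile 97.2. No other gene of the 10 had a promoter peak as high in either list. Among all genes with a promoter peak, the median percentile of the highest one was 94.24 in biosample 1 and 86.39 in biosample 2.

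The Srf promoter lay within the widest hotspot of its locus in each list. In biosample 1 that hotspot spanned 4526 bp, from 896 bp upstream of the start site to 3629 bp into the gene, and held 7 peaks. In biosample 2 it spanned 880 bp and held 1. A peak pair lay in an intron, at chr17:46552896-46553045 in biosample 1, inside the same hotspot as the promoter peak. It scored 146 there (percentile 99.3), and its counterpart, shifted by 20 bp, scored 90 in biosample 2 (97.8). In biosample 2 the counterpart lay in a separate hotspot, 782 bp wide. The pair was called distal only by its distance from start sites. By that rule it was the highest-ranked distal site shared by the lists at any of the 10 loci.

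Vcl (chr14:20929398-21033676, plus strand) encodes vinculin, which links actin to cell adhesions, and Flna (chrX:74223461-74249820, minus strand) encodes filamin A, which crosslinks actin filaments. The Vcl promoter peak scored 139 in biosample 1 (percentile 96.8) and 65 in biosample 2 (87.7). Both lists placed it just upstream of the first start site, and neither had a peak at the second start site, 92605 bp further into the gene. The highest Flna promoter peak scored 141 in biosample 1 (97.5) and 78 in biosample 2 (94.4). It did not lie at the most upstream start site but at a group of 3 start sites 3265 bp downstream, where the CpG ratio was 0.75 against 0.55. At the upstream start site of Flna, the best peak scored 114 (85.1) and 35 (53.9), and that peak lay 955 bp into the gene.

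Tpm1 (chr9:67022590-67049406, minus strand) and Tpm2 (chr4:43514711-43523765, minus strand) encode tropomyosins, which lie along actin filaments. Tpm1 has 16 start sites in 2 groups, 5444 bp apart. The downstream group, whose CpG ratio was 0.79, had a peak of 136 in biosample 1 (percentile 95.5) and 78 in biosample 2 (94.4). The upstream group had 122 (89.2) and 37 (57.3). Thus both groups had DNase sites in both lists, and the downstream one ranked higher in each. At Tpm2 the only promoter peak in both lists was intronic, centred 937 bp downstream of the nearest start site, with scores of 138 (96.4) and 45 (69.1). A peak centred 24 bp downstream of a Tpm2 start site scored 103 in biosample 1 (78.8) and had no counterpart in biosample 2.

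Acta2 (chr19:34241090-34255590, minus strand) encodes smooth muscle alpha-actin, a protein of smooth muscle and of myofibroblasts. In biosample 1 its 5 promoter peaks scored 80, 114, 109, 102 and 90, in order from the downstream to the upstream side. In biosample 2 its 3 promoter peaks scored 45, 34 and 24 in the same order. The only pair that met was that of 114 (percentile 85.1) and 45 (69.1), beside the annotated start site 1360 bp inside the gene. A peak covered the most upstream start site in biosample 1 (score 90, percentile 70.6) but not in biosample 2. One hotspot ran over both start sites in each list, 2232 bp wide in biosample 1 and 1443 bp in biosample 2.

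The smooth muscle genes Tagln, Cnn1, Myl9 and Actg2 had few DNase sites at their starts. Tagln (chr9:45929619-45936058, minus strand) encodes transgelin, an actin-binding protein. Its single promoter peak, chr9:45937036-45937185, had the same bounds in both lists and scored 107 (percentile 81.2) and 42 (64.9), but it lay about as far from the start site as the window allows. Cnn1 (chr9:22099216-22109630, plus strand) encodes calponin, which binds actin and inhibits the myosin ATPase. Its single promoter peak, centred 45 bp before the start site, scored 38 in biosample 1 (11.8), in a hotspot with a −log10 q of 2.67. Myl9 (chr2:156775420-156781658, plus strand) encodes a regulatory light chain of myosin. Its 2 promoter peaks in biosample 1 scored 56 (39.3) and 46 (24.3), in a hotspot with a −log10 q of 5.70. Thus the promoter peaks of Cnn1 and Myl9 ranked below the middle of their list. Biosample 2 had no peak or hotspot at either promoter.

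Actg2 (chr6:83512905-83536265, minus strand) encodes smooth muscle gamma-actin. Neither group of its start sites had a peak or a hotspot within 1000 bp in either list. The locus itself was not empty. It held 25 peaks in biosample 1, of which 20 were distal, and 12 in biosample 2, of which 7 were distal. The 5 others in each list lay at start sites of other genes.

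**Figure D2:**
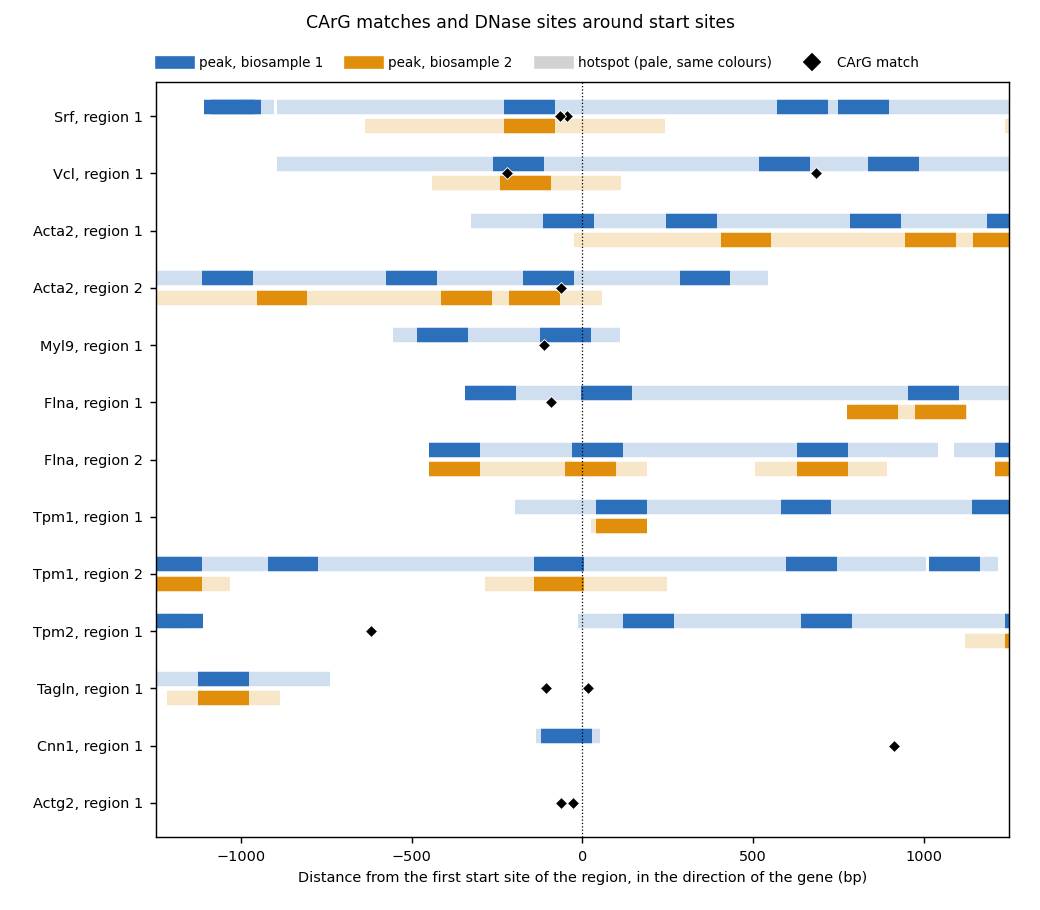
Peaks (solid) and hotspots (pale) of biosample 1 (blue) and biosample 2 (orange) around 13 groups of start sites, with CArG boxes as black diamonds. The x axis gives the distance from the first start site of the group in bp, in the direction of the gene. The Vcl box at −222 bp and the box of the second Acta2 group lie in peaks of both lists, the Srf boxes lie in hotspots of both, and the Tagln and Actg2 boxes near 0 lie in neither.

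CArG boxes were searched on both strands from 250 bp before to 50 bp after each start site. The box has the same form on either strand, and no box shown here overlaps an AP-1 match. A box was found for 8 of the 10 genes, all but Tpm1 and Tpm2, and for 2.52% of all protein-coding genes. These 10 genes were chosen as known targets, so the difference describes the choice. With 1 mismatch allowed, 9 of the 10 genes and 31.6% of all genes had a match, which leaves Tpm2 alone without one. A match is a run of letters and does not show that the factor bound there.

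The genes were chosen with earlier results of these data known. Where these boxes lie against the DNase sites is therefore given as a description only. The 8 genes held 11 boxes in these windows. Of them, 6 lay within 100 bp of a peak of biosample 1 and 4 within 100 bp of a peak in both lists, or 36.4%. Of the 561 boxes in the same windows of all genes, 20.9% lay within 100 bp of a peak in both lists. With 11 boxes in 8 genes, some of them side by side, these shares were not tested against each other. Of the 551 genes with a box, 53.7% had a promoter peak in both lists, close to the share of all genes.

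The boxes fell into 3 sorts. Those of Vcl (CCTTATAAGG, centred 222 bp before the start site) and Acta2 (CCTAATTAGG, 63 bp before the downstream start site) lay inside peaks of both lists, at the scores given above. The pair of Srf (CCATATAAGG at −65 bp and CCATAAAAGG at −45 bp) lay between the promoter peak and the start site, 12 and 32 bp from the edge of the peak. Both Srf boxes were inside hotspots of both lists and outside every peak.

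The second sort was open in biosample 1 alone. The Myl9 box (CCTAATAAGG, −112 bp) was inside the peak that scored 46. The Flna box at its most upstream start site (CCAATTAAGG, −94 bp) lay 84 bp from a peak that scored 82 (percentile 65.0), in a hotspot. The third sort had no peak within 100 bp and no hotspot in either list. It comprised both boxes of Actg2 (CCTTTTTAGG at −27 bp and CCTTATATGG at −64 bp), both of Tagln (CCAAATATGG at 15 bp into the transcript and CCATAAAAGG at −108 bp) and that of Cnn1 (CCTTATAAGG, 61 bp before its second group of start sites). The nearest peak in biosample 1 was 866 bp from the −108 bp box of Tagln, 881 bp from the box of Cnn1 and 2262 bp from the −27 bp box of Actg2. Further boxes stood within 1000 bp of a start site but outside these windows. That of Tpm2 (CCAAAAAAGG, −619 bp) and that of Flna (CCAATATTGG, 600 bp into a late group of start sites, in a UTR) lay in no peak or hotspot of either list. That of Vcl (CCTTTTTAGG, 686 bp into the gene) lay 14 bp from a biosample 1 peak that scored 94 (73.2). The same 10 letters, CCTTATAAGG, stood in a peak of both lists at Vcl and outside all sites at Cnn1, and CCATAAAAGG stood in open chromatin at Srf and outside it at Tagln.

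Start sites differ between annotations, and this bears on the count. In the RefSeq promoter table, also on GRCm38.p6 and added after the data were seen, 8 of the 10 genes had an entry. The 2 without one, Actg2 and Tagln, both had a box at GENCODE start sites. Of the 8, 3 (Srf, Myl9 and Vcl) had a CArG box in the same window, against 1.75% of 16515 genes in that table. The RefSeq start of Acta2 lies 217 bp downstream of the most upstream GENCODE start. Before it stood 2 matches with 1 mismatch, CCCTATATGG at −79 bp and CCTTGTTTGG at −29 bp. They lay in hotspots of both lists and in a peak of neither. At Flna the RefSeq start belongs to the group of start sites with the highest peak, where CATTTAAAGG, with 1 mismatch, lay in peaks of both lists.

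The 10 loci held 369 peaks in biosample 1 and 137 in biosample 2. In biosample 1, 35 were promoter peaks of these genes, 76 lay at promoters of other genes and 258 were distal. In biosample 2 the numbers were 15, 46 and 76. Of the 258 distal peaks of biosample 1, 74 met a peak of biosample 2, or 28.7% (95% Wilson interval 23.5 to 34.5), against 27.9% of all distal peaks. Of the 76 distal peaks of biosample 2, 74 met one of biosample 1, or 97.4% (90.9 to 99.3), against 94.7% of all. The distal sites of these loci were thus shared about as often as distal sites elsewhere. All 122 hotspots of biosample 2 at the loci met a hotspot of biosample 1, against 98.5% of all its hotspots.

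**Figure D3:**
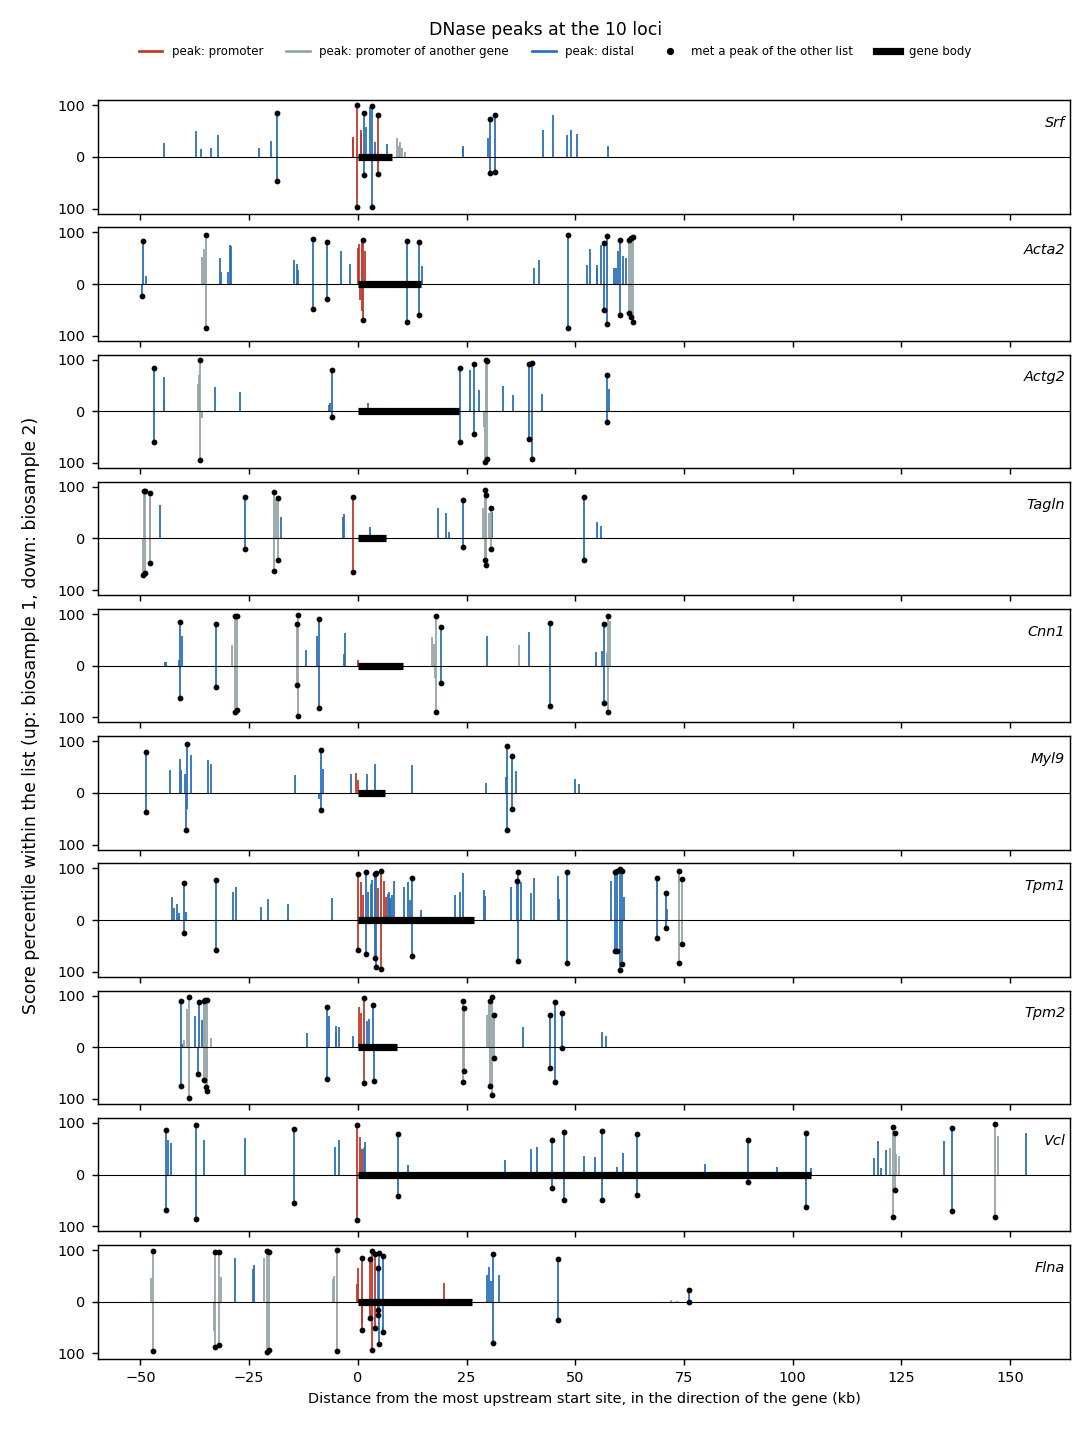
All peaks at the 10 loci by distance from the most upstream start site (x axis, kb, in the direction of the gene). Line height is the score percentile within the list, upwards for biosample 1 and downwards for biosample 2. Red lines are promoter peaks, grey lines lie at promoters of other genes, blue lines are distal, black dots mark peaks met by a peak of the other list and the thick bar is the gene body. Tpm1 has the densest set of peaks per 100 kb in biosample 1, and no red line stands at Actg2.

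Peak density differed among the loci. It was highest at Tpm1, with 49.68 peaks per 100 kb in biosample 1, which put it at percentile 97.6 of all gene loci, where the median was 18.32. Acta2 (38.43, percentile 92.4), Tpm2 (34.84, 88.9) and Srf (33.38, 87.1) followed, and Actg2 was lowest with 20.27 (56.1). In biosample 2 the order was another. Tpm2 led with 16.51 peaks per 100 kb (95.5), before Flna (15.04, 93.4), Tpm1 (14.19, 91.7) and Acta2 (13.97, 91.3), and Srf was lowest with 6.49 (51.3). Every one of the 10 loci was above the median of its list, which was 6.33 in biosample 2. Loci with many other genes nearby hold peaks of those genes: at Tpm2, 14 of 38 peaks in biosample 1 lay at other promoters, whereas at Tpm1 2 of 63 did.

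The share of distal peaks of biosample 1 met in biosample 2 was lowest at Srf, with 5 of 25 (interval 8.86% to 39.1%), and highest at Flna, with 6 of 13, or 46.2% (23.2 to 70.9). The intervals of these extremes overlap. By place, 55 of the 258 distal peaks lay in introns of the gene itself, 81 in introns of other genes, 58 upstream and 53 downstream in intergenic DNA, 4 in the gene's own exons and 7 in exons of other genes. The median percentile of distal peaks at the loci was 54.2 in biosample 1 and 54.8 in biosample 2, against 46.9 and 46.3 for all distal peaks. Promoter peaks of the 10 genes had medians of 73.2 and 57.3, against 73.8 and 66.4 for all promoter peaks.

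The highest-ranked distal site in both lists was named for each locus. After that of Srf came a site 54578 bp downstream of the nearest Tpm1 start site, chr9:66989056-66989205, with scores of 145 (percentile 99.0) and 84 (96.4). It stood in a cluster with 3 further shared peaks that scored 135, 135 and 131 in biosample 1, and in biosample 2 the widest hotspot of the locus (1803 bp) lay there. Distal peaks in the top 10% of the list of biosample 1 numbered 9 of 54 at Tpm1, more than at any other of the 10 loci. Tpm1 also had the most distal peaks of the 10, and the next highest count was 3 of 20 at Actg2. In biosample 2 the number at Tpm1 was 2 of 14. The same share over all distal peaks was not computed. Actg2, with no promoter site, had a shared site of 131 (93.3) and 73 (92.1) in an intron of another gene 31320 bp downstream.

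The other loci had their leading shared site as follows. That of Vcl was 37307 bp upstream (136 and 64), that of Acta2 46999 bp downstream in another gene's intron (135 and 60), and that of Flna in its own intron 1493 bp from a start site (133 and 57). Those of Myl9 (134 and 48) and Tpm2 (124 and 50) lay in introns of other genes, 39409 and 40646 bp upstream. That of Cnn1 was 9025 bp upstream (124 and 58). Tagln had the lowest-ranked leading site, 105 (percentile 80.0) and 29 (42.1), 51443 bp downstream. A site within 50 kb of a gene need not act on that gene, and the lists do not link them.

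The leading sites of Vcl and Flna each held a CArG box, shown above: CCATATTTGG at Vcl and CCATATAAGG at Flna. Of the 74 distal sites in both lists, 4 held a box in the 200 bp around the centre of the peak, or 5.41% (interval 2.12 to 13.1), against 1.13% of all 72124 such sites. The other 2 were the Acta2 peak 10249 bp upstream (CCTTATAAGG, scores 120 and 32) and a Vcl intron peak 2833 bp before the second start site (CCAATTTTGG, 86 and 17). With 1 mismatch allowed the share was 17.6% against 15.6% of all, so the gap is seen only for the strict form. Among all 258 distal peaks of biosample 1, 10 held a box (3.88%, 2.12 to 6.99), against 1.05% of all.

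Boxes in distal peaks of biosample 1 alone included 2 copies of CCATATAAGG in introns of Tpm1, where no box was found near a start site. Their peaks scored 99 (percentile 76.4) and 88 (69.2). The same letters stood in the Srf intron, 8 bp from a peak that scored 141 (97.5) and inside hotspots of both lists. Further boxes at or near distal peaks of biosample 1 alone stood at Vcl (CCAAAAATGG, 26121 bp upstream, score 90), Myl9 (CCATATATGG, 49949 bp downstream, score 48) and Cnn1 (CCAATTTAGG, 53038 bp downstream and 9 bp from a peak of score 48). Among the boxes named at the 10 genes, the form CCATATAAGG was found at Srf, in its promoter and in its intron, at Flna and at Tpm1.

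Other motifs were searched in the same windows on both strands. AP-1 (TGACTCA or TGAGTCA) marks sites of FOS and JUN factors, and TEAD (CATTCCA or CATTCCT) those of the TEAD factors of the Hippo pathway. AP-1 was found at 20 of the 74 shared distal sites, or 27.0% (18.2 to 38.1), against 29.7% of all. TEAD was found at 9.46% against 14.5%, the CTCF consensus at 10.8% against 9.52%, and a TATA-like run (TATAAA or TATAAT, which can share letters with a CArG box) at 13.5% against 13.1%. The intervals of these 4 shares all hold the value for all sites. At the start sites of the 10 genes, AP-1 was found for 0 of 10 genes, whose interval reaches 27.8%, against 7.88% of all genes, TEAD for 4 (40.0%, interval 16.8 to 68.7) against 14.5%, and the TATA-like run for 3 (30.0%, 10.8 to 60.3) against 26.7%. The TEAD interval does not hold the value for all genes, with 4 genes behind it. These were Tpm1, Flna, Actg2 and Acta2, with 16, 6, 5 and 2 start sites. A gene counted when any of its start sites had a match, so genes with more start sites had more sequence searched. The shares were not adjusted for this.

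**Figure D4:**
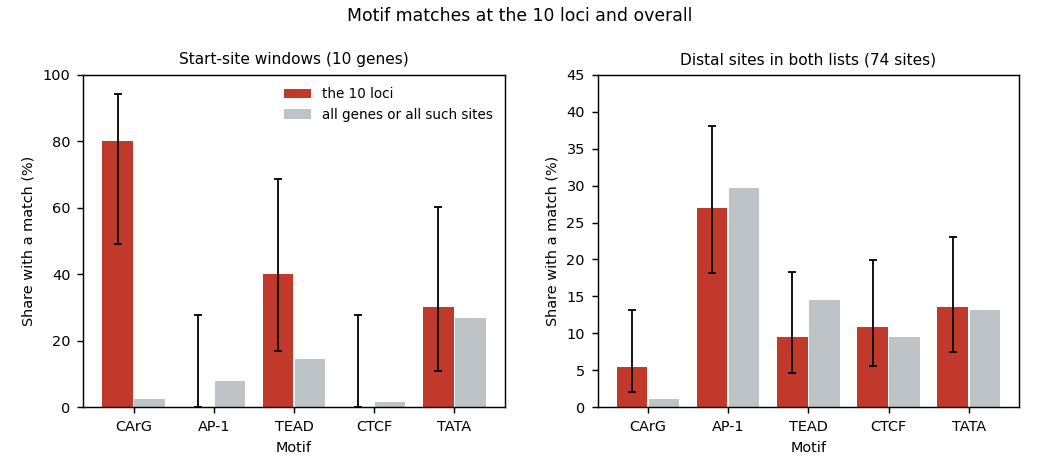
Share with a motif match (y axis, percent) at the 10 loci (red) and over all genes or sites (grey). Whiskers are 95% Wilson intervals that cover counting error only. The left panel counts genes with a match at any start site, and the right panel counts distal sites in both lists. The 2 panels have different scales. CArG stands at 80.0% of the 10 genes against 2.52% of all genes, whereas AP-1 at distal sites stands at 27.0% against 29.7%.

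Of 38 other genes of actin, SRF and contraction, 28 had a promoter peak in both lists (73.7%, against 51.8% of all genes), 5 had one in biosample 1 alone and 5 had none. A gene with a promoter peak in both lists is called open here, and the shares were not tested. The partners of SRF were open but for one. Mrtfa scored 148 and 100 (percentiles 99.7 and 99.3), Mrtfb 138 and 66, and the ternary complex factors Elk1 140 and 80, Elk3 105 and 39, and Elk4 131 and 46. Myocd, the partner that drives smooth and cardiac muscle genes, had no promoter peak in either list.

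The groups of these genes differ in CpG content. Of the 38 genes, 23 had a CpG ratio of at least 0.6, and 20 of these were open, against 80.2% of all genes in that class. Of the 15 below 0.6, 8 were open, against 27.1% of all such genes. Here too the class was taken at the most upstream start site, whereas a peak at any start site counted. An open gene below 0.6 may thus have its peak at a start site with another ratio. CpG-rich were 9 of the 10 genes for crosslinkers and adhesion proteins and 4 of the 5 for non-muscle myosin, but 1 of the 7 smooth muscle contractile genes, and the part of CpG content in the counts below was not tested.

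All 5 genes for non-muscle myosin and its light chains had a promoter peak in both lists, as did all 10 genes for crosslinkers and adhesion proteins. Of the 5, Myl12a and Myl12b, both on chromosome 17, had the same highest scores, 139 and 78. Whether the same peaks counted for both was not examined. By mean percentile over the lists, the highest of the 38 were Zyx (zyxin, a focal adhesion protein) at 99.6, Mrtfa at 99.5, Cald1 (caldesmon) at 98.8, Myh10 (a non-muscle myosin heavy chain) at 98.7, and Myh9 and Tln1 (talin), both at 98.6. Of 7 smooth muscle contractile genes, 3 were open in both lists (Mylk, Smtn and Cald1), Myh11, Lmod1 and Synpo2 had a peak in biosample 1 alone, and Des had none. Of 4 other actins, the cytoplasmic Actb and Actg1 were open in both lists and the striated muscle actins Acta1 and Actc1 in neither. Among the tropomyosin, calponin and transgelin relatives, Tpm3, Cnn3 and Tagln2 were open in both lists, Tpm4 and Cnn2 in biosample 1 alone, and Tagln3 in neither.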

How the data were processed

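DNase-seq of 4 libraries from 2 biosamples of 3T3-L1 cells was grouped by the biological replicate number in the labels, which leave unstated whether these came from separate cultures. Per the labels, the authors pooled the 2 libraries of each biosample and called peaks and hotspots in mm10. The software behind these steps (aligner, callers) is not given in the sources used here. Deposited peak lists carry a score of undefined meaning, which was ranked within each list. Deposited hotspot lists carry a −log10 q value with a maximum of 100, which was not ranked. At the 10 loci it was either 100 or at most 6.00.

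The 10 genes and the lists of pathway genes and markers were chosen with earlier results of these data known. All 10 genes are named, with their highest promoter peak and highest shared distal peak by mean percentile and the CArG boxes found at promoters or at distal peaks. Of the pathway list, the text names the highest 5 by mean percentile (6 with a tie at the printed precision), the SRF partners and every gene without a promoter peak in both lists, and further genes only as examples of their group. Start sites came from 54355 positions of protein-coding transcripts on chromosomes 1 to 19, X and Y. Peaks met when they shared at least 1 bp. Analyses used Python 3.11.15 with numpy 2.4.6, pandas 2.3.3, scipy 1.17.1 and pysam 0.24.0, and the overlap and motif code was tested on simulated data. No test was run, since each biosample has 1 list. Wilson intervals (95%) cover counting error only.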

Additional observations from a re-analysis of the deposited data

How the results depend on the processing

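The 8 counts and shares were recomputed under 35 alternatives, and 27 stayed within 1.5 times the count or within the interval of the share. That band is wide for the counts of genes with a promoter peak. For the 10 genes it takes in both a fall from 7 to 5 and a rise to 9, so the tally is no measure of stability there. The number of distal peaks at the loci depended on the region taken. In biosample 1 it was 101 with a flank of 10 kb, 460 with a flank of 100 kb and 147 in the stronger 50% of the list, against 258. In biosample 2 it was 31, 132 and 43, against 76. The share of these peaks met in the other list ran from 27.9% to 29.9% over its alternatives. With RefSeq start sites, an alternative added after seeing the data, 3 genes had a CArG box near a start site in place of 8. The 2 genes not in that table, Actg2 and Tagln, were both among the 8, so the counts cover unlike sets of genes. The share of shared distal sites with a CArG match was 13.5% when the peak itself was searched with 1 mismatch allowed, against 5.41%. For that setting the share over all such sites was not computed. In 200 bp windows with 1 mismatch it was 17.6% at the loci and 15.6% over all. The number of genes with a promoter peak in both lists ran from 5 with a window of 500 bp to 7 in the other settings that use both lists, with 6 at the most upstream start site only, where Tpm2 was lost. It was 9 with biosample 1 alone and 7 with biosample 2 alone. For the pathway genes it ran from 25 to 33. No paired analysis was possible because each biosample has 1 list. Depth was unknown, so a site missing from the shorter list may lie below its depth, and no value here has a spread between replicates.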
